A study of Mus musculus with 10 samples.

Results

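The SLIT ligands, the ROBO receptors and the srGAP proteins that bind those receptors are encoded in the mouse by 10 genes: Slit1, Slit2 and Slit3, Robo1, Robo2, Robo3 and Robo4, and Srgap1, Srgap2 and Srgap3. All 10 were among the 23420 gene rows of a study of the testis, and 8 had enough counts to be tested. The group was chosen by the rise of Srgap1 in the mutant libraries, and its relatives and partners were then taken by name. The difference in Srgap1 is therefore a description with no test, and the question was whether the other members moved with it.

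The study sequenced polyA RNA of spermatogenic cells from testes of mice at postnatal day 18 (P18), in 5 libraries labelled Ino80WT and 5 labelled Ino80cKO. Ino80WT served as the control. In Ino80cKO the Ino80 gene, which encodes the ATPase of a chromatin remodelling complex, was deleted with Stra8-Cre, a recombinase active in male germ cells and not in the somatic cells of the tubule. All mice were of mixed background, and both groups were prepared alike, by enzymatic digestion of the seminiferous tubules with collagenase and trypsin and passage through a 40 micron filter, with no sorting described. Nothing in the labels ties a library to its own animal. The p-values thus rest on the variation among libraries, some of which may be technical.

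SLITs are large secreted glycoproteins, best known as repellents of growing axons and migrating cells. They bind the immunoglobulin domains of ROBO receptors with the help of heparan sulfate, and the receptor's tail then recruits adaptors and srGAPs. An srGAP carries an F-BAR domain that bends membranes, a GAP domain that turns off small GTPases, and an SH3 domain that binds ROBO1. Outside the brain the pathway acts in blood vessels, kidney and gonads, where SLITs and ROBOs have been described in somatic cells of the fetal and adult gonad.

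The 3 Srgap genes are close paralogs on different chromosomes, and their promoter sequences are shown because only Srgap1 changed more than 2-fold. Each run is the 250 bases before a transcription start in RefSeq (GRCm38.p6), 5′ to 3′ on the gene's own strand, with every CpG in capitals. By GENCODE M21 each of the 3 windows lies outside the gene, while RefSeq also places longer transcripts over them. All 3 genes are on the minus strand, at chr10:122047316-122047565 for Srgap1, chr1:131527362-131527611 for Srgap2 and chr6:112947267-112947516 for Srgap3.
Srgap1: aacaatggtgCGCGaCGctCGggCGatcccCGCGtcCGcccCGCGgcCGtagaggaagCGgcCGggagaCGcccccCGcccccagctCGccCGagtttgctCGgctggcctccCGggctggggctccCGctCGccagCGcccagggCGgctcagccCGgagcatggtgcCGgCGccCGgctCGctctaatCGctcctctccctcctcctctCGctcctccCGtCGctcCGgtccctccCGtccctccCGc
Srgap2: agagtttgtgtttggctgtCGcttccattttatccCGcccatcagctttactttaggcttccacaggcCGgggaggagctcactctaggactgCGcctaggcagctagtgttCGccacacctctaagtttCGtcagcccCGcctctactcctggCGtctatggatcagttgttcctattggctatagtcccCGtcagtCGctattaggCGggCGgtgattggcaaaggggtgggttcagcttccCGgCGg
Srgap3: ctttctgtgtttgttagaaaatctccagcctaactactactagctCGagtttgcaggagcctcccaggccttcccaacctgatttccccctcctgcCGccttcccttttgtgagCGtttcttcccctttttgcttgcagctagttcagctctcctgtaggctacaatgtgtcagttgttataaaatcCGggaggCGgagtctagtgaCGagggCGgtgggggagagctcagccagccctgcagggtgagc

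The Srgap1 window held 35 CpG, against 14 for Srgap2 and 7 for Srgap3, and 97.0% of 32851 mouse promoters of the same length held fewer than Srgap1. The median promoter held 6. Promoters were listed for 9 of the member genes, 11 in all, with a median of 12 CpG. Slit3 also held 35 CpG and Slit2 held 25, while Robo4 held 2, more than 18.8% of promoters. The members that were higher in Ino80cKO, described below, thus included both ends of this range. Of 5 motifs searched on both strands, CACGTG (the E-box) was in 1 of the 11 member promoters (Robo2) and in 6.02% of all promoters, and TATAAA was in 2 (Slit2 and Srgap3) and in 12.4%. TGACGTCA (CRE), AANATGGC (YY1) and AACNGTT (MYB) were in none of the 11, and in 1.55%, 3.91% and 3.80% of all promoters. No motif contains another, and a match or its absence describes only these letters in this window.

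Sequencing depth was similar in both groups. Counts assigned to genes ranged from 16750609 in Ino80WT 1 to 23700094 in Ino80WT 3, so that 3 counts, taken as the floor, equal 0.117 to 0.189 CPM. CPM are library-scaled counts (with TMM factors), and the floor covers counting error only. The targeted gene did not mark the groups: Ino80 was at 75.8 to 110.1 CPM in Ino80WT and 94.5 to 97.5 CPM in Ino80cKO, with an adjusted p of 0.889, and counts summed over the whole gene do not show whether part of it was deleted. In the fit over 15265 genes, 2793 were called higher and 4220 lower in Ino80cKO, and with library totals in place of TMM factors 5484 were higher and 2937 lower. Across all genes the median of the log2 fold changes was 0.016 with TMM factors and 0.19 with library totals, so small differences below are read against that shift.

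Marker lists show which cells the libraries held. All 10 pachytene spermatocyte markers were called lower in Ino80cKO. Their log2 fold changes had a median of -1.70, and their summed level was 3168 to 5676 CPM in Ino80WT and 1061 to 1904 CPM in Ino80cKO. Of 10 broader germ cell markers, 5 were lower and 1 was higher. Piwil1 and Ldhc, both among the lower, also stand in the pachytene list, so the lists are not separate. By median log2 fold change the somatic lists leaned the other way, from 0.23 (peritubular) and 0.25 (endothelial) up to 0.79 (macrophage). Called higher were 4 of 12 Sertoli, 4 of 7 tested Leydig and 1 of 8 peritubular cell markers. Among endothelial markers it was 0 of 10, among stromal 6 of 8 and among macrophage 4 of 7. Of the 52 somatic markers, 0 were called lower by edgeR, by DESeq2 or at an unadjusted p under 0.05. Beside these marker counts, 18.3% of all genes were called higher and 27.6% lower. The peritubular and endothelial counts thus did not exceed the share called higher. No tested marker of these lists was at 0 in any library. In bulk RNA, fewer cells of a type and less RNA per cell cannot be told apart.

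Srgap1, on chromosome 10 (GRCm38, 121780991 to 122047911), showed the difference for which the group was chosen. SRGAP1 binds ROBO1 and lowers active Cdc42 downstream of SLIT. It was at 4.53, 5.54, 5.52, 8.78 and 6.26 CPM in Ino80WT 1 to 5. In Ino80cKO 1 to 5 it was at 16.0, 11.5, 18.3, 21.1 and 14.6 CPM. The lowest mutant library lay above the highest control library, Ino80WT 4. The means were 6.13 ± 1.61 and 16.3 ± 3.66 CPM (SD, n = 5 each), a log2 fold change of 1.40 ± 0.19 (SE), which is 2.64-fold with a 95% interval of 1.98 to 3.53. Raw counts were 72 to 196 per library in Ino80WT and 260 to 430 in Ino80cKO. Of all tested genes, 32 had a larger log2 fold change.

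**Figure D1:**
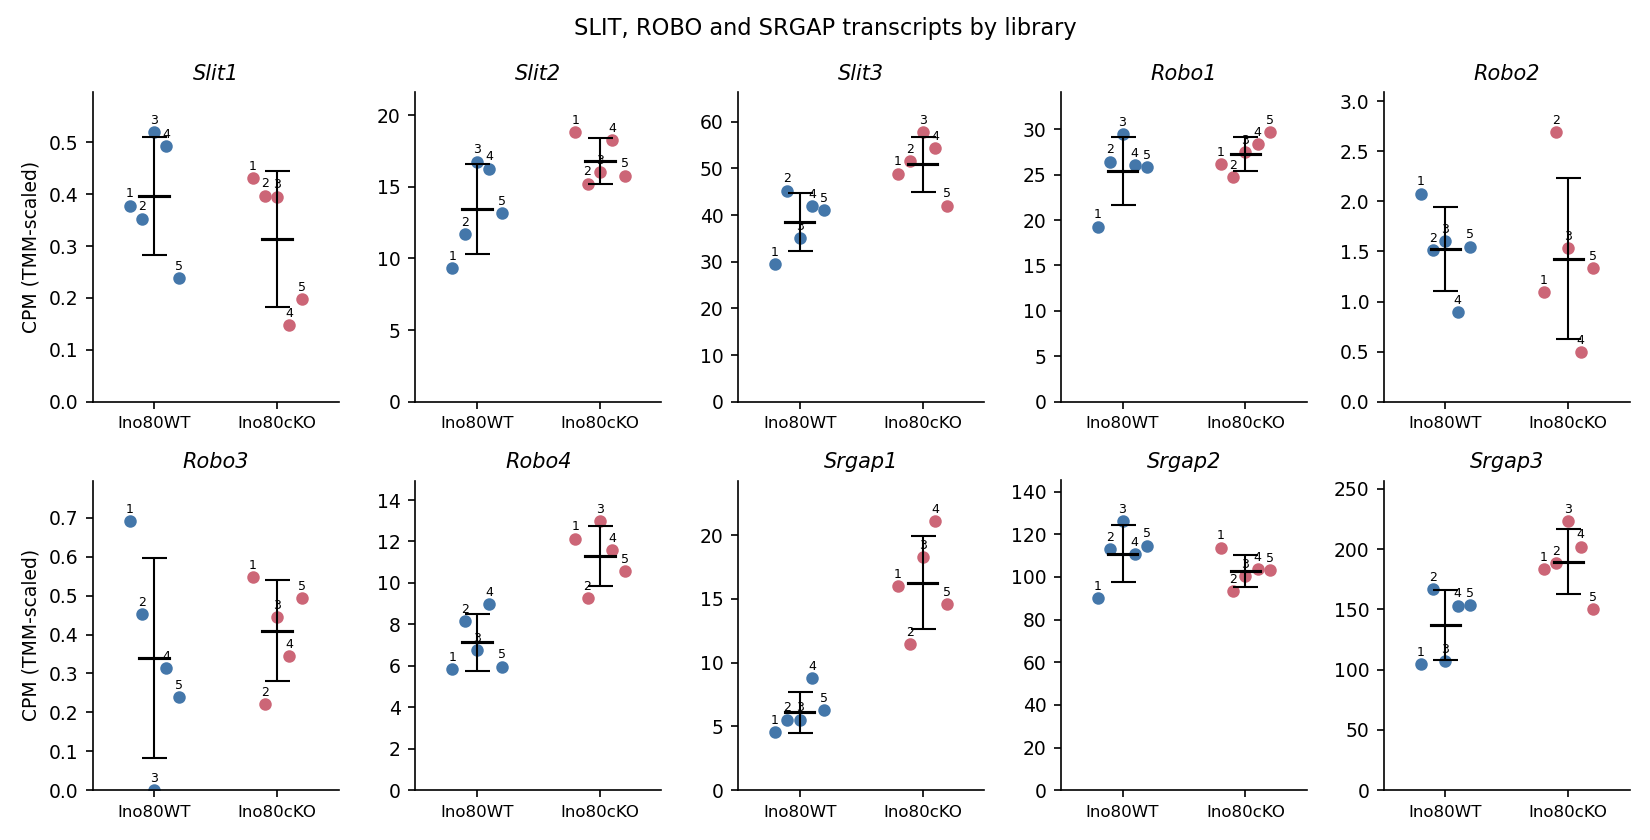
Level of each SLIT, ROBO and SRGAP transcript (CPM, linear axes from 0, each panel with its own scale) in 5 Ino80WT and 5 Ino80cKO libraries. Points are libraries with their replicate number, and bars are the mean and SD. Groups are apart for Srgap1 and Robo4 and overlap for the other members.

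Among the 7 other tested members, 3 were called higher (Slit3, Robo4 and Srgap3) and 0 lower by the quasi-likelihood test of edgeR, adjusted after Benjamini and Hochberg over all genes tested. At an unadjusted p under 0.05, and in DESeq2, 0 of them were lower as well. The members were named with this contrast in view, so the count is a description. Of all genes, 18.3% were called higher and 27.6% lower. Only Robo4 of these 7 had no overlap between groups, and 9.96% of all genes were higher without overlap and 22.0% lower without overlap. The median log2 fold change of the 7 was 0.32, against 0.016 for all genes. None of the 7 had a log2 fold change within the 95% interval of Srgap1, 0.98 to 1.82, and the interval of Robo4 reached up to 0.97. Srgap1 was chosen for its rise in this contrast, so setting the others against it is no test.

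**Figure D2:**
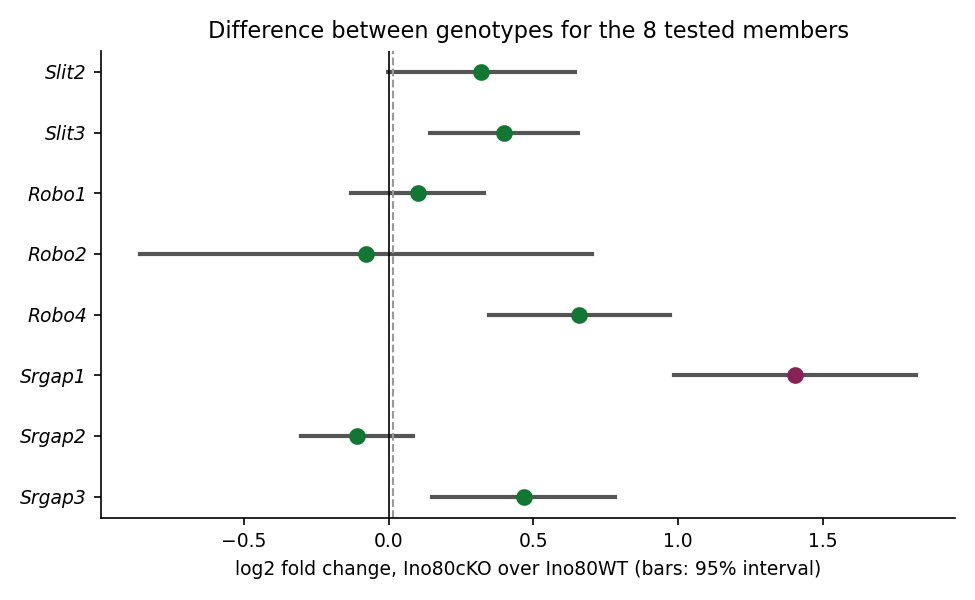
Log2 fold change (Ino80cKO over Ino80WT) of the 8 tested members with 95% intervals. The dashed line is the median of all tested genes, 0.016. Srgap1 (1.40) chose the group, and Robo4 (0.66) is the next, followed by Srgap3 (0.47) and Slit3 (0.40).

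The ligands differed in abundance and little in direction. Slit3, on chromosome 11 (35121456 to 35708507), was at 29.5, 45.2, 35.1, 41.9 and 41.1 CPM in Ino80WT 1 to 5. It was at 48.9, 51.5, 57.7, 54.3 and 42.0 CPM in Ino80cKO 1 to 5. The groups overlapped through Ino80cKO 5, which lay below Ino80WT 2. Slit3 was called higher, with a log2 fold change of 0.40 ± 0.12 (1.32-fold, 95% interval 1.10 to 1.58, adjusted p = 0.0159 in edgeR).

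Slit2, on chromosome 5 (47981291 to 48307735), is the ligand most studied with ROBO1. It was at 9.32, 11.7, 16.8, 16.3 and 13.2 CPM in Ino80WT and at 18.8, 15.2, 16.0, 18.3 and 15.8 CPM in Ino80cKO. Ino80cKO 1 and 4 lay above every control, and the other mutant libraries lay within the control range. The log2 fold change was 0.32 ± 0.15 with a 95% interval of -0.0037 to 0.64 and an adjusted p of 0.0955, so Slit2 was not called. It passed without Ino80WT 3, where its log2 fold change was 0.41 with an adjusted p of 0.0389.

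Slit1, the ligand named first in brain development, was at 0.238 to 0.519 CPM in Ino80WT and 0.147 to 0.431 CPM in Ino80cKO. With 39 counts in all 5 control libraries and 35 in all 5 mutant libraries it was not tested, and Ino80cKO 4 lay at the floor of 3 counts. Slit3 took 73.6 ± 4.55% of the summed Slit counts in Ino80WT and 74.7 ± 2.64% in Ino80cKO (SD, n = 5 each). The share of Slit3 thus differed by less than the spread between libraries. Slit1, at the few counts given above, took 0.770 ± 0.237% and 0.460 ± 0.182%.

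Robo4 was the receptor that rose. ROBO4 is a short, divergent ROBO of blood vessel endothelium, where it stabilizes vessels. Its gene lies on chromosome 9 (37401902 to 37414023). It was at 5.85, 8.16, 6.75, 8.96 and 5.96 CPM in Ino80WT and at 12.1, 9.26, 13.0, 11.6 and 10.6 CPM in Ino80cKO. All 5 mutant libraries were above all 5 controls, by a narrow margin between Ino80cKO 2 and Ino80WT 4. The log2 fold change was 0.66 ± 0.14 (1.58-fold, 95% interval 1.27 to 1.96, adjusted p = 0.00296 in edgeR).

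The endothelial markers were measured beside Robo4. Their summed level was 70.4 to 113 CPM in Ino80WT and 83.3 to 135 CPM in Ino80cKO. Their median log2 fold change was 0.25, against 0.016 for all genes. By edgeR 0 of the 10 were called, beside 18.3% of all genes called higher. At an unadjusted p under 0.05, 1 of the 10 markers was higher, and DESeq2 called 2 of them higher. Cdh5, the cadherin of endothelial junctions, had the largest log2 fold change of the 10, 0.36 ± 0.17 (adjusted p = 0.0925 in edgeR). Pecam1, an endothelial adhesion molecule, had 0.24 ± 0.19 (adjusted p = 0.305). The lowest of the 10 was Emcn at -0.15 ± 0.34 (adjusted p = 0.737). After the group means were subtracted, the correlation of Robo4 with the mean of the endothelial list over the 10 libraries was 0.26. The part of endothelial cells in the Robo4 result was not tested.

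Robo1, the main SLIT receptor of migrating cells, lies on chromosome 16 (72027518 to 73047491). It was at 19.3, 26.4, 29.4, 26.1 and 25.8 CPM in Ino80WT and at 26.2, 24.7, 27.5, 28.3 and 29.7 CPM in Ino80cKO. Apart from Ino80WT 1, which was lowest, the groups covered the same range. The log2 fold change was 0.10 ± 0.11 (95% interval -0.13 to 0.33, adjusted p = 0.454 in edgeR). The 95% interval of Robo4 starts at 0.35, just above the end of this one. The ratio of Robo4 to Robo1 counts, which needs no scaling between libraries, was 22.9 to 34.4 per 100 in Ino80WT and 35.7 to 47.3 per 100 in Ino80cKO, with no overlap.

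Robo2, the neighbour of Robo1 on chromosome 16 (73891976 to 75447443), is a SLIT receptor with a known role in kidney development. It was at 2.08, 1.51, 1.60, 0.896 and 1.55 CPM in Ino80WT and at 1.10, 2.69, 1.53, 0.491 and 1.33 CPM in Ino80cKO. The mutant libraries held both the highest and the lowest value. The log2 fold change was -0.08 ± 0.36 with a 95% interval of -0.86 to 0.70 (adjusted p = 0.871 in edgeR), and with library totals it was 0.10. Its raw counts ran from 10 to 61 per library in Ino80cKO. With this spread between libraries and this depth the interval is wide, and it covers differences in both directions.

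Robo3, a receptor of commissural neurons that responds to NELL2 and not to SLIT in mammals, was at 0 to 0.692 CPM in Ino80WT and 0.220 to 0.548 CPM in Ino80cKO. It held 31 counts in Ino80WT and 45 in Ino80cKO and was not tested. Ino80WT 3 held 0 counts, which allows up to 0.142 CPM there. Robo3 and Robo4 point tail to tail with 553 bases between their ends in GENCODE M21, and whether counting used strand is not stated in the labels. Robo3 held at most 0.692 CPM in any library.

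Srgap3 was the most abundant member and the second Srgap gene that rose. SRGAP3, also known as WRP or MEGAP, turns off Rac1 and binds the actin regulator WAVE1. Its gene is on chromosome 6 (112717971 to 112947505). It was at 104, 167, 107, 153 and 154 CPM in Ino80WT and at 183, 188, 223, 202 and 150 CPM in Ino80cKO. Of the mutant libraries, 4 lay above every control and Ino80cKO 5 lay among the controls. The log2 fold change was 0.47 ± 0.15 (1.38-fold, 95% interval 0.15 to 0.78, adjusted p = 0.0202 in edgeR).

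Srgap2, whose partial duplicates in humans are known for their effect on dendritic spines, lies on chromosome 1 (131285251 to 131527531) and did not rise. It was at 90.1, 113, 126, 111 and 115 CPM in Ino80WT and at 114, 93.4, 100.4, 104 and 103 CPM in Ino80cKO. Ino80WT 1 was the lowest of all 10 libraries, and the other controls lay in the upper part of the range. The log2 fold change was -0.11 ± 0.09 (95% interval -0.30 to 0.08, adjusted p = 0.326 in edgeR), and with library totals it was 0.069. The Srgap2 row overlaps the Fam72a row, which had a log2 fold change of -0.20 (adjusted p = 0.172).

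Ratios within a library describe the paralogs without any scaling between libraries. Srgap1 made up 2.41 ± 0.48% of the summed Srgap counts in Ino80WT, with a range of 1.94% to 3.22%. In Ino80cKO it made up 5.25 ± 0.92%, with a range of 3.91% to 6.47% (SD, n = 5 each). These ranges did not overlap. The share of Srgap2 was 39.7% to 52.9% in Ino80WT and 29.4% to 38.5% in Ino80cKO, also without overlap, and that of Srgap3 was 53.6 ± 5.32% and 61.2 ± 3.89%, with overlap. Per 100 counts of Srgap3, itself higher in the mutant, Srgap1 had 3.33 to 5.74 counts in Ino80WT and 6.08 to 10.5 in Ino80cKO. Per 100 counts of Srgap2 it had 4.37 to 7.93 and 12.3 to 20.4. Since Srgap1 chose the group, these ratios restate its rise and are no separate support for it.

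**Figure D3:**
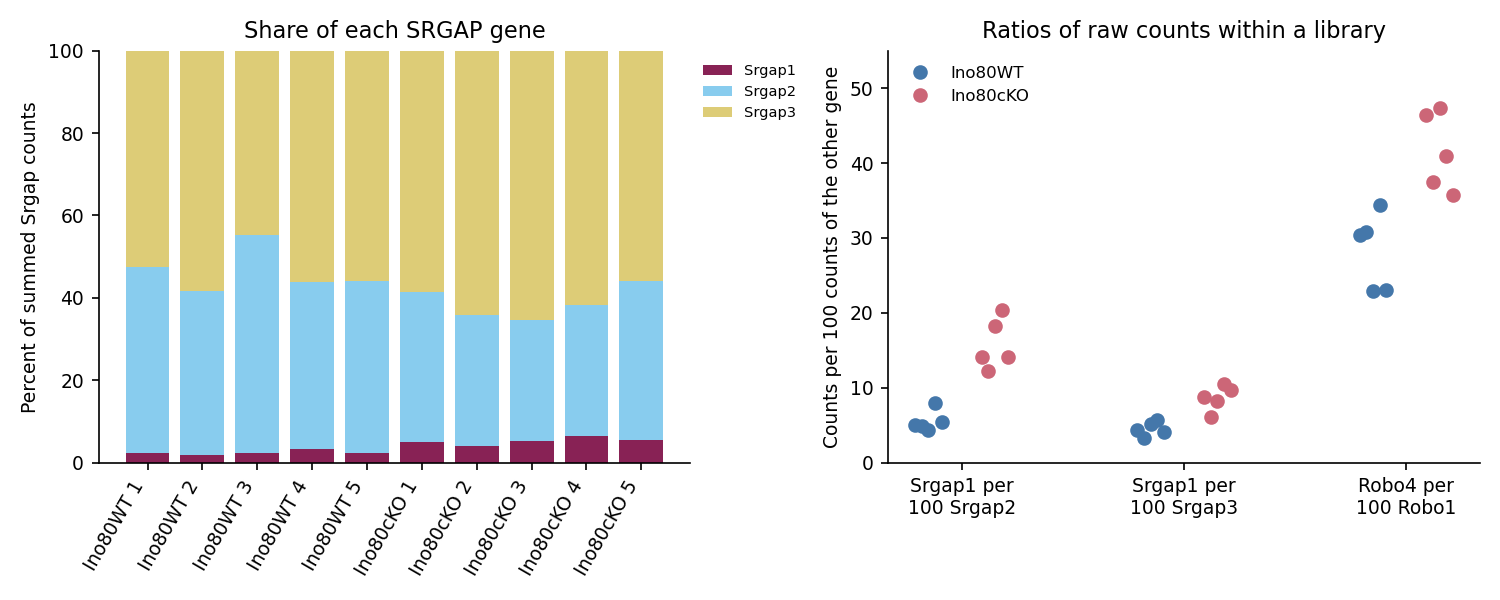
Left, percent of the summed Srgap counts held by Srgap1, Srgap2 and Srgap3 in each library. Right, raw counts of 1 gene per 100 counts of another in each of the 5 libraries per group, where the groups do not overlap for Srgap1 per 100 Srgap2 (4.37 to 7.93 and 12.3 to 20.4), Srgap1 per 100 Srgap3 or Robo4 per 100 Robo1.

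Levels between genes were compared as CPM per kb of exon (GENCODE M21). In Ino80WT the order was Srgap3 at 15.4 ± 3.25, Srgap2 at 13.3 ± 1.57, Slit3 at 7.38 ± 1.19, Robo1 at 3.36 ± 0.49, Robo4 at 1.40 ± 0.27, Slit2 at 1.34 ± 0.31, Srgap1 at 0.783 ± 0.205 and Robo2 at 0.171 ± 0.047 CPM per kb (SD, n = 5). Slit1 and Robo3 were lowest, at 0.068 and 0.066 CPM per kb. The ranges of neighbours overlapped for Srgap3 and Srgap2, for Robo4 and Slit2, for Slit2 and Srgap1, and for Slit1 and Robo3, and were apart for the other neighbours. In Ino80cKO Srgap1 was at 2.08 CPM per kb, still far below its paralogs. Srgap1 was thus the minor Srgap transcript under both labels.

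**Figure D4:**
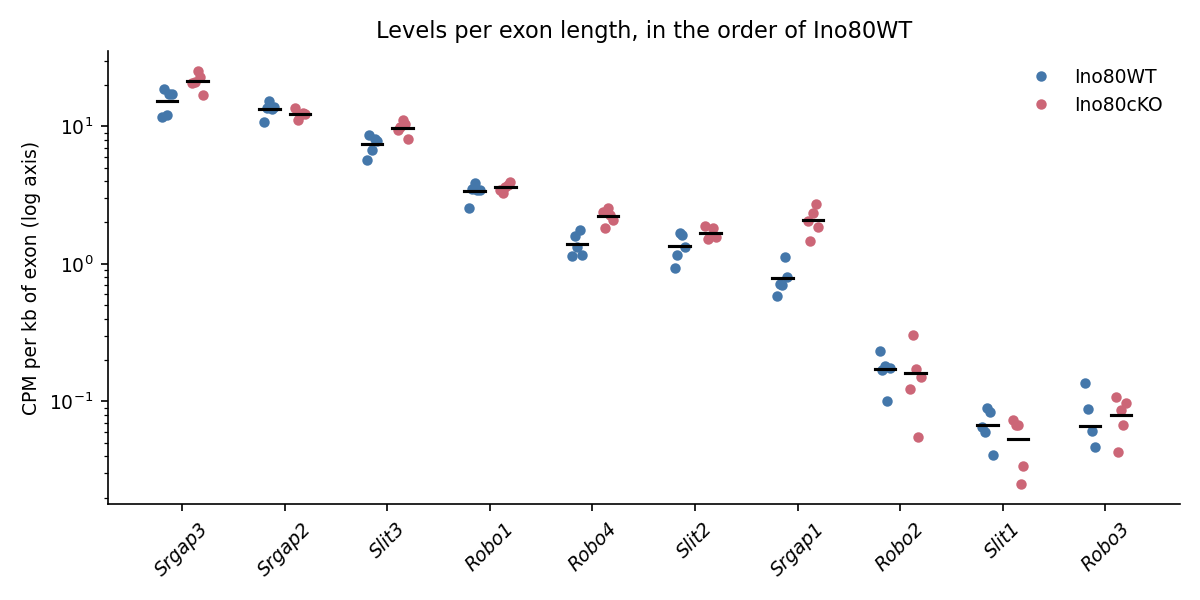
CPM per kb of exon (log axis) of the 10 members in each library, ordered by the Ino80WT mean. Points are libraries (a library at 0 is not drawn: Ino80WT 3 for Robo3) and lines are means. Srgap1 moves from 0.783 to 2.08 CPM per kb and stays below Srgap2 and Srgap3.

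Ino80WT 1, the shallowest library, was the lowest control for 7 of the 8 tested members, all but Robo2. For Srgap3 and Robo4 it was close to the next control, and Dixon's criterion for a library far from the others was met in 0 of 20 groups of member values. Its summed Sertoli markers were the highest of the controls, at 3680 CPM. Without it the log2 fold change was 1.34 for Srgap1, 0.62 for Robo4 (adjusted p = 0.00574), 0.34 for Slit3 (adjusted p = 0.0184) and 0.41 for Srgap3 (adjusted p = 0.0296), all in edgeR. For Slit2 it was 0.24 (adjusted p = 0.133), for Robo1 0.04, and for Srgap2 -0.15 (adjusted p = 0.0884). The differences of the 4 genes therefore remained of similar size without this library.

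Within the groups, members varied together to different degrees. These are correlations of log2 CPM after subtraction of each group mean, over 10 libraries that share depth and cell make-up, and are given as a description. Slit3 and Srgap3 had r = 0.96, Robo1 and Srgap2 0.84, and Slit2 and Srgap2 0.82. Srgap1 had r = 0.73 with Robo4, 0.53 with Srgap3, 0.40 with Srgap2 and -0.85 with Robo2. The last value rests on few counts, as Robo2 held 61 in Ino80cKO 2 and 10 in Ino80cKO 4. Srgap3 had r = 0.73 with the endothelial list and 0.55 with the Sertoli list. For Srgap1 r was 0.03 with the Sertoli list, 0.27 with the endothelial, 0.50 with the macrophage and -0.05 with the pachytene list. Slit2, Robo1 and Srgap2 had r = -0.57, -0.63 and -0.65 with the Sertoli list. With the pachytene list they had 0.40, 0.61 and 0.54. The summed macrophage markers were at 51.7 to 74.8 CPM in Ino80WT and 70.1 to 100.3 CPM in Ino80cKO, with 7 of 8 markers found by symbol. Summed stromal markers were at 540 to 720 and 701 to 1238 CPM, and summed Sertoli markers at 2205 to 3680 and 2917 to 4776 CPM. Their part in the rise of Srgap1, Slit3, Robo4 and Srgap3 was not tested.

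The genes whose levels followed Srgap1 most closely by the same measure, among 12344 compared, were Mpzl2, an adhesion protein (r = 0.94), Myo9b, a myosin with a GAP domain (0.91), Zfp839, a zinc finger protein (0.91), Pde3a, a phosphodiesterase (0.91), and Cd209c, a C-type lectin (0.90). These 5 were picked as the highest of 12344 values, each over 10 libraries, so their r is a description and no test. The differences of the 5 between genotypes were unlike each other. Cd209c had a log2 fold change of 1.83, Myo9b of 0.23 and Mpzl2 of -0.72 (adjusted p = 0.192). Of these 5 genes, Cd209c alone had a log2 fold change as large as that of Srgap1.

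The pathway around the receptors was described from 4 further lists, written with earlier results of these libraries known. Their counts stand beside 18.3% of all genes called higher and 27.6% called lower, or 35.9% called higher with library totals. Of 19 genes for ligands, coreceptors and modifiers of ROBO, 18 were tested, 9 were called higher and 1 lower. Their median log2 fold change was 0.31. With library totals 14 were called higher, and with Ino80WT 1 left out, 2 were called lower. The lower gene was Nell2, which encodes a secreted ligand of ROBO3. It fell from 68.4 ± 12.8 CPM to 37.6 ± 5.19 CPM (SD, n = 5 each), and its log2 fold change was -0.86 ± 0.13 (adjusted p = 0.000287 in edgeR). Ino80WT libraries lay between 57.0 and 89.3 CPM for Nell2 and Ino80cKO libraries between 29.7 and 43.5 CPM, with no overlap.

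The other genes of this list with the smallest adjusted p were Sdc3, Hs6st1 and Sdc4. Sdc3 and Sdc4, which encode syndecans, cell surface carriers of heparan sulfate, had log2 fold changes of 0.51 ± 0.10 (adjusted p = 0.00143) and 0.43 ± 0.09 (adjusted p = 0.00205 in edgeR). Hs6st1, which encodes a sulfotransferase that modifies the chains SLIT binds, had 0.45 ± 0.09 (adjusted p = 0.00145 in edgeR). Sdc4 rose from 188 ± 16.9 to 253 ± 25.6 CPM. The list held 8 genes for carriers or enzymes of heparan sulfate, a grouping made after the values were seen. Of these 8, 5 were called higher (Sdc3, Sdc4, Hs6st1, Ext1 and Hs2st1) and 3 were not called, a count that this late grouping shaped. Beside it, 18.3% of all genes were called higher, or 35.9% with library totals. The latter were Sdc2 with a log2 fold change of 0.32 (adjusted p = 0.0544), Gpc1 with 0.18 (adjusted p = 0.286) and Sdc1 with -0.12 (adjusted p = 0.380).

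Of 28 genes for proteins that act below ROBO and srGAPs, 9 were called higher (20 with library totals) and 3 lower, with a median of 0.14, beside 18.3% and 27.6% of all genes (35.9% higher with library totals). Pfn2, a profilin that feeds actin growth, fell by 0.55 ± 0.08 on the log2 scale (adjusted p = 0.000238 in edgeR), and Nck1, an adaptor that binds ROBO's tail, fell by 0.50 ± 0.08 (adjusted p = 0.000461 in edgeR). Sos2, an exchange factor for Ras and Rac, rose by 0.43 ± 0.09 (adjusted p = 0.00271), and Vasp, an actin regulator, by 0.57 ± 0.12 (adjusted p = 0.00276 in edgeR). The GTPases on which srGAPs act were chosen for mention after their values were seen. Rac1 rose from 115 ± 10.2 to 142 ± 8.98 CPM (log2 fold change 0.29, adjusted p = 0.00763 in edgeR), while Cdc42 had a log2 fold change of 0.13 (adjusted p = 0.212) and Rhoa of 0.07 (adjusted p = 0.390).

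Other F-BAR proteins are the nearest structural relatives of srGAPs. Of 22 names, 19 were found and tested, 5 were called higher and 1 lower, with a median of 0.16, so that the number higher was near the 18.3% of all genes. Arhgap29, a GAP protein with an F-BAR domain, fell from 396 ± 50.5 to 302 ± 18.7 CPM (log2 fold change -0.39 ± 0.09, adjusted p = 0.00435 in edgeR). Hmha1, another F-BAR GAP protein, rose from 2.34 ± 0.23 to 3.43 ± 0.18 CPM (0.55 ± 0.13, adjusted p = 0.00492 in edgeR). Fnbp1 and Gas7, F-BAR proteins that act on actin and membranes, had log2 fold changes of 0.41 ± 0.15 (adjusted p = 0.0382) and 0.42 ± 0.15 (adjusted p = 0.0396 in edgeR). The number called higher was not stable: it fell to 1 without Ino80cKO 3 or without Ino80cKO 4, and to 2 without Ino80WT 3, Ino80cKO 1 or Ino80cKO 2. Without Ino80WT 1, Ino80WT 4 or Ino80WT 5 it was 3, and with library totals it was 8. No F-BAR relative had a log2 fold change as large as that of Srgap1, which was chosen for its rise.

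Netrins and their receptors are a second guidance system, and Dcc and Unc5b stand both here and among the ROBO cofactors. Of 12 genes, 9 were tested, 3 were called higher and 0 lower, with a median of 0.16, beside 18.3% and 27.6% of all genes. These 3 were Ntn4, a netrin of basement membranes (0.51 ± 0.11, adjusted p = 0.00286), Neo1, the netrin receptor neogenin (0.39 ± 0.12, adjusted p = 0.0182), and Ntn1, the classical netrin (0.44 ± 0.15, adjusted p = 0.0287 in edgeR). Ntn4 was at 31.4 ± 1.44 CPM in Ino80WT and 44.6 ± 7.97 CPM in Ino80cKO. At an unadjusted p under 0.05, and in DESeq2, 0 were lower.

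**Figure D5:**
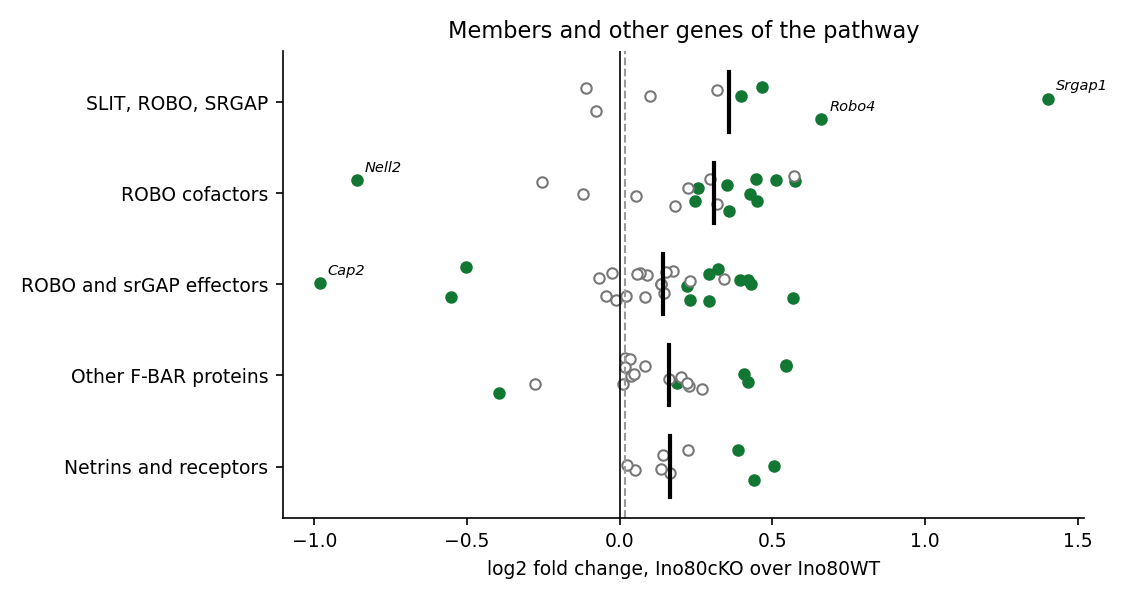
Log2 fold change (Ino80cKO over Ino80WT) of each tested gene of the members and the 4 further lists. Filled points were called at an adjusted p below 0.05 and open points were not. Black bars are list medians (0.36 for the members, 0.31 for ROBO cofactors, 0.14, 0.16 and 0.16 for the others). The member median includes Srgap1, and for the 7 other tested members it is 0.32. The dashed line is the median of all genes. Srgap1, which chose the group, lies to the right of every other point.

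The genes beside the members were also measured. Leaving out members and counting each gene once, the nearest tested genes on both sides were 16, of which 0 were called higher and 8 lower by edgeR. Their median was -0.22 on the log2 scale, and 0 were higher at an unadjusted p under 0.05 or in DESeq2. Of all genes, 18.3% were called higher and 27.6% lower. Taking 3 genes on each side, with repeats and members included, 7 of 60 were called higher and 18 lower. Those higher included Avpr1a, the second gene beyond Srgap1 on 1 side (0.76, adjusted p = 0.0183), and Rassf5 (0.57, adjusted p = 0.00326) beside Srgap2, chosen for mention after their values were seen. Srgap1 lies between BC048403, 28.1 kb away with a log2 fold change of 0.23 (adjusted p = 0.10), and Gm9079, 30.2 kb away with 0.24 (adjusted p = 0.353). Srgap3 lies between Rad18, which encodes a ubiquitin ligase of DNA damage tolerance and fell by 0.74, and Thumpd3, an RNA methyltransferase gene, which fell by 0.82. Msantd2, the nearest gene beyond Robo3 and Robo4, fell by 0.23, and Hepacam on the side of Robo4 had -0.10 (adjusted p = 0.548).

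Slit2 and Slit3 each carry a copy of the miR-218 gene inside the gene body, and miR-218 is known for targeting ROBO transcripts. Mir218-1 lies in Slit2 (chr5:48223966-48223986 for the mature arm) and Mir218-2 in Slit3 (chr11:35616840-35616860), on the plus strand of GRCm38. RefSeq gives both the same mature sequence, shown with its seed (bases 2 to 8) in capitals because its match was looked for in the members.
miR-218-5p: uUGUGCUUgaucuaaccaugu

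The 7 bases AAGCACA that pair with this seed were looked for in the 3′ UTR of 1 GENCODE transcript per gene, on the transcript strand. Robo2 held 2 matches, and Slit2, Robo1, Robo3, Srgap2 and Srgap3 held 1 each. Slit1, Slit3, Robo4 and Srgap1 held none. Among 13328 tested genes with such a UTR, 13.7% held at least 1 match and 2.17% at least 2. A match depends on length, and the median UTR had 959 bases. Of the members called higher, Srgap1 and Srgap3 had UTRs of 4407 and 4817 bases, and Robo4 and Slit3 of 634 and 365. Of the tested members not called, Srgap2 had 4106 bases, Robo2 3520, Robo1 1733 and Slit2 1270. The stretches around the match (capitals) with an A after it are shown as examples.
Robo1: ttttggttttaaAAGCACAatc
Robo2: ttatttggtgatAAGCACAaat
Srgap2: gggaaaaatccaAAGCACAact
Of the 4 members that were higher, Srgap3 alone held a match, while all 4 tested members that were not called held one. This split was seen after the calls were known, and it includes Srgap1, which chose the group. It also depends on the threshold, as Slit2 was called in 2 of 15 alternative settings. A part of miR-218 in these differences was not tested. Both miR-218 rows held 0 counts in all 10 libraries, below the floor of 0.117 to 0.189 CPM, and polyA libraries are not made to capture a mature miRNA. A match is a description of the sequence and not a measured site.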

How the data were processed

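PolyA RNA of 10 libraries was compared, 5 labelled Ino80WT and 5 labelled Ino80cKO, grouped by the genotype in the labels. The authors deposited whole-number counts per gene, not normalized, per the file contents, and libraries were made with a Kapa stranded kit, per the labels' protocols. TopHat2, HTSeq, DESeq2 and mm10 are named, without versions, per the submitters' processing notes. Which annotation and strand setting were used was not given in the sources used here. Without strand, overlapping genes on opposite strands cannot be told apart. The 5 rows that name no gene held 35.5% to 44.0% of the reads and were left out. No libraries were duplicates (lowest chi-square per degree of freedom 9.00).

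The test was run in edgeR 4.0.16 (R 4.3.3): filterByExpr (minimum count 10, minimum total 15) kept 15265 genes, followed by TMM factors and a robust quasi-likelihood fit with genotype as its only term, and the threshold was 0.05 on p adjusted after Benjamini and Hochberg. The SE is the log2 fold change divided by the square root of F. Within-group correlations used log2 CPM with a prior count of 2. The script was tested on simulated data. Alternatives were DESeq2 1.42.0, library totals, no filter, a stricter filter (1 CPM in 5 libraries), each library left out in turn and a replicate block.

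The members and gene lists were chosen with earlier results of these data known. Genes named are the 10 members, up to 4 called genes per pathway list with the smallest adjusted p, the 5 genes most like Srgap1, the nearest neighbours and Ino80. Outside this rule, Cdh5, Pecam1, Emcn, Fam72a, Rac1, Cdc42, Rhoa, Avpr1a, Rassf5 and the heparan sulfate genes Sdc1, Sdc2, Gpc1, Ext1 and Hs2st1 were chosen for mention after their values were seen. Dcc, Unc5b, Piwil1 and Ldhc are named only because they stand in overlapping lists. Sequences and coordinates are from RefSeq GRCm38.p6 and GENCODE M21, the same build as mm10.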

Additional observations from a re-analysis of the deposited data

How the results depend on the processing

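Under the 15 alternatives, Srgap1 kept a log2 fold change of 1.29 to 1.57, and Robo4 (0.60 to 0.83), Slit3 (0.34 to 0.57) and Srgap3 (0.39 to 0.64) were called in all 15, with adjusted p up to 0.0134, 0.0373 and 0.0431. The number of members called higher stayed between 4 and 6, a count that includes Srgap1, which chose the group. The 6 came with library totals, where 35.9% of all genes were called higher. With library totals, which moved the median of all genes to 0.19, ROBO cofactors called higher became 14 (from 9), effectors 20 (from 9) and F-BAR relatives 8 (from 5). Slit2 (0.49, adjusted p = 0.0160) and Robo1 (0.28, adjusted p = 0.0392) then passed, and Robo2 (0.10) and Srgap2 (0.069) changed sign. By construction, this setting leaves out the TMM factors. Leaving out 1 library at a time, F-BAR relatives called higher ranged from 1 to 5, ROBO cofactors called lower from 1 to 2, with 2 without Ino80WT 1, and Robo2 from -0.44 to 0.13. Robo2 changed sign without Ino80WT 1 (0.08), Ino80cKO 1 (0.0084) and Ino80cKO 4 (0.13). Apart from the effect of scaling and of leaving samples out, the cause was not tested. Replicate numbers occur in both groups, with no label that ties a number to a litter or day. Of 5 same-numbered pairs, 2 had correlated deviations above 0.1 (range -0.47 to 0.20), and 1 of 5 control libraries correlated best with its own number. With the replicate block, F-BAR relatives called higher were 2, members called higher stayed 4, and Srgap1 had a log2 fold change of 1.41. All genes called were 1921 higher and 3572 lower. Depth limits Slit1 and Robo3, which were not tested, and the spread between libraries as well as depth limits Robo2.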
